A study of Sus scrofa with 4 samples.

Results

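The EGF and FGF ligands and their receptors were examined in porcine pancreatic ductal organoids (PPDO) and in primary pig pancreas by droplet-based single-cell RNA sequencing. Members were taken by name from the feature tables (EGF, TGFA, AREG, EREG, HBEGF, BTC, NRG1 to NRG4, EGFR, ERBB2 to ERBB4, FGFR1 to FGFR4 and every numbered FGF), which gave 37 of 30282 genes once all features of each gene had been added up. BTC had no feature of that name and was not a member. By role the members comprised 5 EGF receptor ligands, 4 neuregulins, 4 ERBB receptors, 4 FGF receptors, 14 secreted FGFs, 3 endocrine FGFs (FGF19, FGF21 and FGF23) and 3 intracellular FGFs (FGF12, FGF13 and FGF14).

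Ligands of the EGF family are made as membrane-bound precursors that are cut free at the cell surface, and bind EGFR or ERBB4, whereas neuregulins bind ERBB3 and ERBB4. ERBB2 has no ligand of its own and serves as the partner of the others, and ERBB3 has a kinase of little activity and depends on its partner. Secreted FGFs bind FGFR1 to FGFR4 together with heparan sulfate, and in the developing pancreas FGF10 from the mesenchyme signals to the epithelium through FGFR2. The intracellular FGFs do not act through these receptors and are best known as partners of sodium channels. Both EGF and FGF10 were present in the PPDO medium.

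Each group held 2 libraries, all from pigs of German landrace background. The 2 PPDO lines came from hand-picked ducts of a late postnatal and an adult pig. The lines were taken at an earlier and a later passage, both past the range that the paper calls early. It is not given which of the 2 libraries is which line. They were grown in a basement membrane extract with human EGF, FGF10, WNT3a, R-spondin1 and noggin (later an L-WRN conditioned medium for the last 3 of these), A83-01, prostaglandin E2, gastrin, Y-27632, nicotinamide, N-acetylcysteine, B27 without vitamin A and N2. The 2 primary libraries came from 2 late postnatal pigs, a wild-type animal and an INS-eGFP animal in which eGFP is driven by the porcine insulin promoter, processed on different days. For the first the ducts were isolated by hand, and the second pooled sorted DBA+ cells (a lectin that binds ducts), sorted INS-eGFP cells and the whole suspension, so the shares of cell classes in it were set by the sort. Each library stood for a single line or animal. Organoid culture, pig and library preparation cannot be told apart from the difference between the groups.

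The libraries held 366263504 and 316018482 UMIs (unique molecular identifiers, each a counted molecule) in PPDO 1 and 2 and 87043349 and 138918005 in primary pancreas 1 and 2. After filtering, 8885, 7337, 5671 and 4262 cells were kept, and pairs of libraries shared 10 to 23 cell barcodes. Levels are given as CPM, the share of a gene in all UMIs of a class or library, scaled to 1000000. A change in the share of positive cells and a change in the RNA per cell cannot be told apart in such sums. Because only the 3' end of each transcript was counted, levels are compared between cells and not between genes. Primary cells were named from their markers as ductal-like (2161 and 1171 cells in libraries 1 and 2), endocrine-like (101 and 2203), endothelial-like (1073 and 264), stellate-like (752 and 48), immune-like (709 and 139), acinar-like (257 and 56) and schwann-like (345 and 1). The summed level of 7 duct markers was 970 and 867 CPM in PPDO 1 and 2 against 25688 and 29901 CPM in the ductal-like cells, with none of the 7 at 0, and that of 6 basal markers was 8844 and 11512 CPM against 162 and 116 CPM. Over all cells, these 2 PPDO libraries thus had low matched duct markers and high matched basal markers beside the duct cells of the pig. KRT19 and MUC1 of the duct list and KRT14 and KRT17 of the basal list were not matched. The paper describes most cells of the 2 lines as already changed to a less mature duct state at the passages sampled. Early-passage PPDO, which it describes as ductal, are not among the libraries.

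Of the 37 members, 23 reached 5 CPM in both libraries of PPDO or of a primary class, 13 of them in PPDO and 13 in ductal-like cells. The remaining 14 stayed at or below 1.78 CPM in PPDO, and no named class held more than 16.4 CPM of any of them. Compared with ductal-like cells, PPDO had higher AREG and NRG1 and lower ERBB4, FGFR2, FGFR4 and NRG4. The level of EGFR was alike in size in all 4 sums, and that of EREG, HBEGF and TGFA was not separated from the spread between the primary libraries. In edgeR's quasi-likelihood test on library sums (Benjamini-Hochberg over 23510 genes, threshold 0.05), 30 members were tested, of which 7 were higher in PPDO, 9 were lower and 14 did not pass, while 7 had too few UMIs to test. The called members made up 53.3% of those tested, beside 43.7% of all genes tested. Of all genes 22.8% were higher and 20.9% lower. The median log2 fold change was -0.16 over the members tested and 0.01 over all genes.

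**Figure D1:**
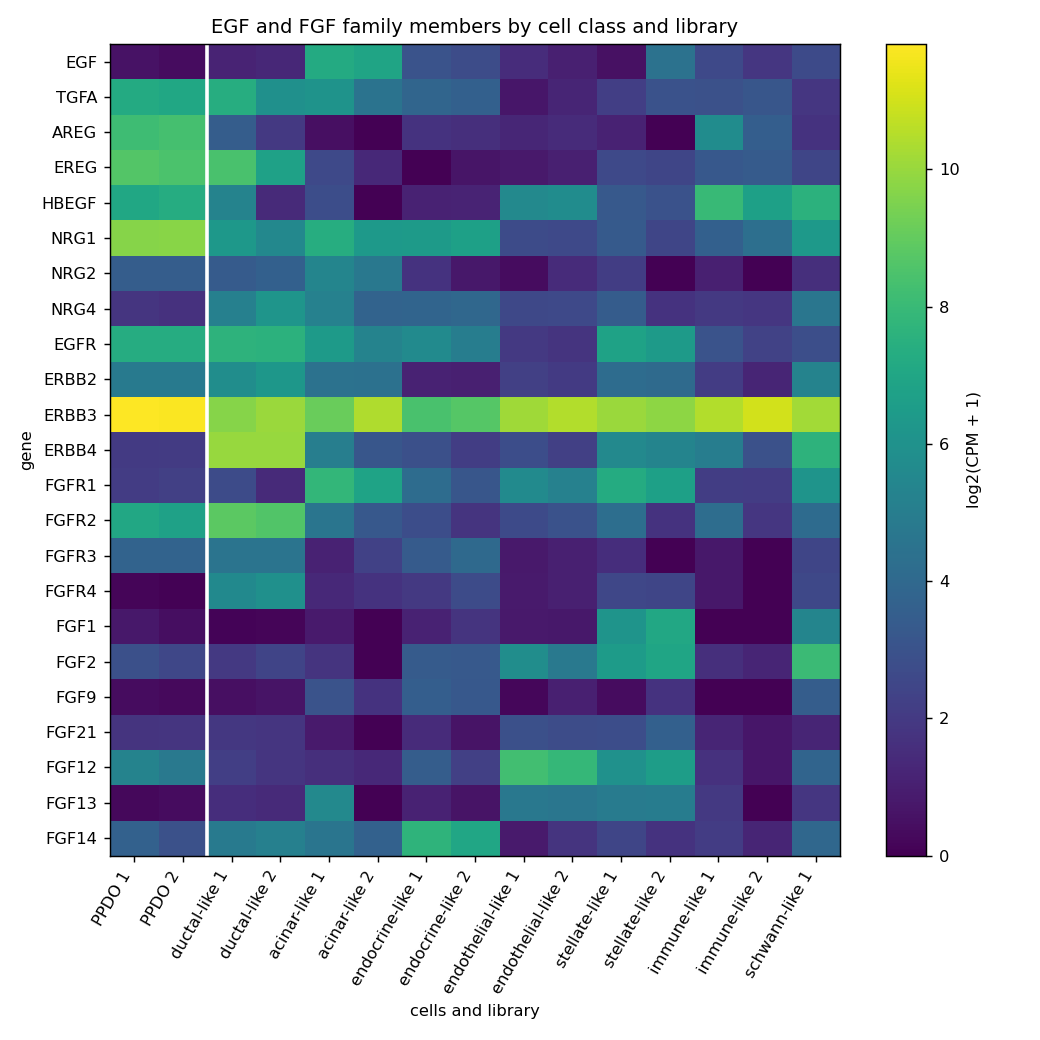
Levels of the 23 members that reached 5 CPM in both libraries of PPDO or a primary class, as log2(CPM + 1) by color, with 1 row for each gene and 1 column for each class and library of at least 20 cells. Within their own rows, ERBB4, FGFR2 and FGFR4 were brightest in both ductal-like columns, EGF in the acinar-like columns, and AREG and NRG1 in both PPDO columns. ERBB4 and FGFR4 were dark in PPDO.

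Amphiregulin (AREG), a ligand of EGFR that does not bind ERBB4, was at 284 and 322 CPM in PPDO 1 and 2 and at 10.3 and 2.92 CPM in ductal-like cells of libraries 1 and 2. Both PPDO libraries thus lay above both primary ones. The log2 fold change was 5.89 ± 0.79 (SE, n = 2 and 2, edgeR adjusted p = 0.00552). In ductal-like cells 22.2% and 53.4% of the AREG UMIs lay on 3' extension features, beside 3.33% and 2.11% in PPDO. The call was kept without these features. Outside the ducts the highest primary level of AREG was in immune-like cells, with 53.4 and 10.7 CPM. The 15 immune markers summed to 6634 and 6548 CPM in PPDO and 1624 and 1663 CPM in ductal-like cells, so they were higher in PPDO as AREG was. Nearly all of this was CD74, at 4811 and 4523 CPM in PPDO and 1070 and 1092 CPM in ductal-like cells, and CD79A, at 1795 and 2002 CPM and 547 and 561 CPM. Both were found in every class with at least 20 cells in a library, CD74 at 551 CPM or more and CD79A at 164 CPM or more. Endothelial-like cells held 4877 and 5245 CPM of CD74 and 1139 and 1080 CPM of CD79A. The other 13 markers, set apart after these values had been seen, summed to 28.6 and 24.0 CPM in PPDO and 7.91 and 9.88 CPM in ductal-like cells, and PTPRC, which defines leukocytes, was at 0.419 and 0.210 CPM in PPDO. The part of immune RNA in AREG was not tested.

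Epiregulin (EREG), which binds EGFR and ERBB4, was at 406 and 356 CPM in PPDO and at 340 and 106 CPM in ductal-like cells. Heparin-binding EGF (HBEGF) was at 133 and 157 CPM in PPDO and at 37.7 and 1.64 CPM in ductal-like cells. For TGFA the levels were 151 and 133 CPM in PPDO and 163 and 60.9 CPM in ductal-like cells. For all 3 ligands ductal-like cells of library 1 were higher than those of library 2, and for TGFA they overlapped PPDO. None of the 3 passed the test, with log2 fold changes of 1.15 ± 0.63 for EREG (adjusted p = 0.197), 3.22 ± 1.40 for HBEGF (adjusted p = 0.127) and 0.73 ± 0.54 for TGFA (adjusted p = 0.324; SE and edgeR throughout).

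Much of the gap between the primary libraries in these ligands, but not all of it, lay in 1 cluster of ductal-like cells. This cluster held 1255 cells, all of library 1, and its leading genes were OSGIN1, RND1, AADAC and EREG itself. In this cluster EREG was at 423 CPM, HBEGF at 49.4 CPM and TGFA at 190 CPM. Apart from 1 cell, the other ductal-like clusters, of 465 and 440 cells in library 1 and of 1107 and 64 cells in library 2, ranged from 98.7 to 130 CPM for EREG, from 1.61 to 13.0 CPM for HBEGF and from 60.2 to 98.4 CPM for TGFA. No member entered the clustering, but EREG was among the leading genes by which this cluster was picked out, so its level there is a description. Without this cluster, which was chosen with these levels known, the log2 fold changes became 2.31 for EREG, 5.97 for HBEGF and 1.43 for TGFA, values that the choice itself raises and that carry no test. With 1 primary library left out, the spread is taken from the 2 PPDO libraries alone and the gap between the primary libraries no longer enters it. HBEGF and EREG were then past the threshold either way, at 7.0 and 2.37 without library 1 and 2.26 and 0.48 without library 2, and TGFA without library 1, at 1.75.

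EGF itself was a gene of acinar-like cells, with 148 and 120 CPM there against 1.25 and 1.52 CPM in ductal-like cells and 0.485 and 0.313 CPM in PPDO. The difference between PPDO and ductal-like cells passed the test, with a log2 fold change of -1.34 ± 0.36 (adjusted p = 0.0389), but the call was lost whichever library was left out (adjusted p 0.067 to 0.23). In ductal-like cells EGF stood at 0.848% and 1.27% of its acinar-like level, and the summed acinar markers stood there at 0.675% and 0.279% of theirs. The part of RNA from acinar cells in the EGF of ductal-like cells was not tested. The remaining gene of the group, betacellulin (BTC), was outside the members because its identifier took its name only from a gene name table. It was at 0.382 and 0.168 CPM in PPDO and 8.67 and 12.8 CPM in ductal-like cells (log2 fold change -4.82 ± 0.49, adjusted p = 0.0028). In the RefSeq annotation of Sscrofa11.1, EREG (chromosome 8, 70351316 to 70372530), AREG (70417935 to 70428106) and BTC (70645721 to 70697538) lie in the same stretch of the chromosome.

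**Figure D2:**
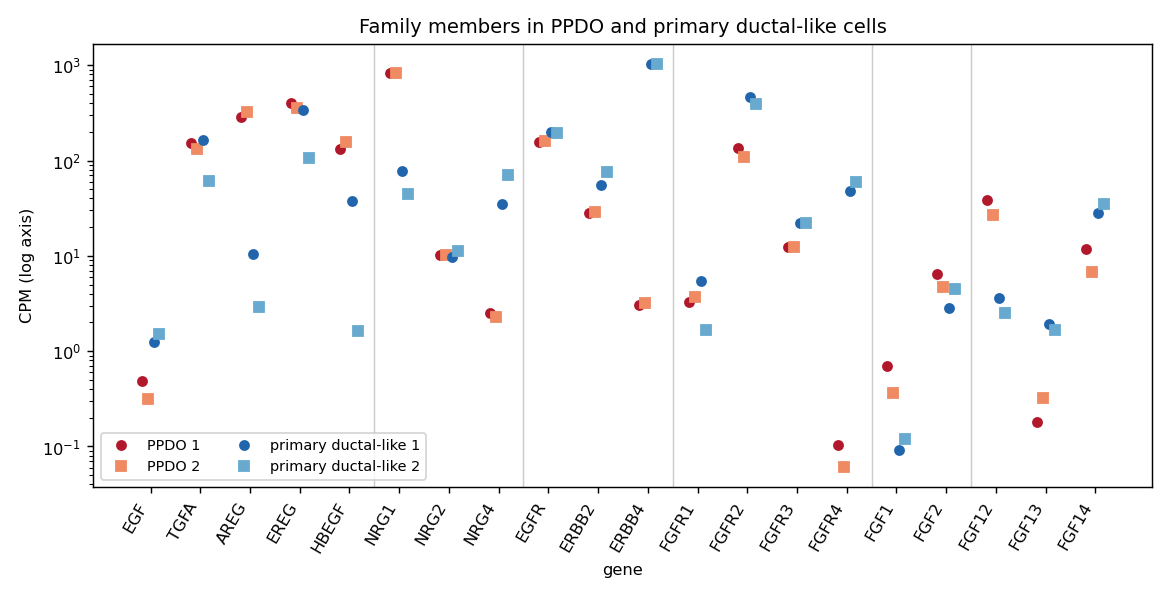
Levels of 20 members in CPM on a log axis, with 1 point for each library: PPDO 1 and 2 in red and orange, ductal-like cells of primary libraries 1 and 2 in dark and light blue. AREG, NRG1 and FGF12 lay higher in both PPDO libraries, ERBB4, FGFR4 and NRG4 lower, and the points of EGFR lay between 157 and 198 CPM.

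Neuregulin 1 (NRG1), a ligand of ERBB3 and ERBB4, was at 832 and 838 CPM in PPDO and at 77.3 and 45.1 CPM in ductal-like cells. The PPDO libraries were close to each other and both above the primary ones, with a log2 fold change of 4.18 ± 0.40 (adjusted p = 0.00242). In the primary organ NRG1 was at 166 and 84.7 CPM in acinar-like cells, 85.8 and 104 CPM in endocrine-like cells and 79.9 CPM in schwann-like cells, the last from library 1 alone. Endothelial-like, immune-like and stellate-like cells held 4.61 to 18.7 CPM of NRG1.

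Neuregulin 4 (NRG4), a ligand of ERBB4, had the opposite difference. It was at 2.49 and 2.27 CPM in PPDO and at 34.7 and 70.6 CPM in ductal-like cells (log2 fold change -3.98 ± 0.33, adjusted p = 0.00167). Neuregulin 2 (NRG2) was at 10.2 and 10.3 CPM in PPDO and 9.69 and 11.4 CPM in ductal-like cells and did not pass (0.41 ± 0.17, adjusted p = 0.118), and its highest levels were 40.5 and 25.3 CPM in acinar-like cells. NRG3 was low throughout, at 1.78 and 1.19 CPM in PPDO and 4.5 and 4.52 CPM in ductal-like cells, and was called lower (-1.16 ± 0.32, adjusted p = 0.0403), a call lost without PPDO 1, PPDO 2 or primary pancreas 1 (adjusted p = 0.102, 0.216 and 0.076).

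ERBB4, the receptor that binds neuregulins and several EGF family ligands, was at 1027 and 1019 CPM in ductal-like cells and at 3.04 and 3.17 CPM in PPDO. Every ductal-like cluster held 912 to 1608 CPM, and the highest other named class was schwann-like with 198 CPM. The PPDO clusters held 1.07 to 4.86 CPM. The log2 fold change was -7.92 ± 0.21 (adjusted p = 0.000315). ERBB2, the receptor without a ligand, was at 27.8 and 28.8 CPM in PPDO against 55.2 and 75.6 CPM in ductal-like cells (-0.74 ± 0.15, adjusted p = 0.0176). This call was lost without PPDO 1 (adjusted p = 0.129) and without PPDO 2 (adjusted p = 0.0977).

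EGFR was at 157 and 159 CPM in PPDO and at 198 and 196 CPM in ductal-like cells. The log2 fold change was 0.13 ± 0.15 (adjusted p = 0.519) with TMM factors and -0.32 with library totals in their place, so its direction changed with the scaling and it passed under neither. In the other classes EGFR was at 111 and 85.2 CPM in stellate-like cells, 85.0 and 38.0 CPM in acinar-like cells, 49.1 and 31.5 CPM in endocrine-like cells and 2.91 and 2.40 CPM in endothelial-like cells. It was thus a gene of epithelial and stellate-like cells and low in the endothelium.

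The counts named ERBB3, a receptor that pairs with ERBB2, were at 3636 and 3499 CPM in PPDO and 816 and 1055 CPM in ductal-like cells (2.39 ± 0.15, adjusted p = 0.00094), but their pattern over the classes was unlike that of the other receptors. ERBB3 was at 348 CPM or more in every class with at least 20 cells in a library, with 1147 and 1424 CPM in endothelial-like and 1392 and 2058 CPM in immune-like cells. Over 15 sets of cells ERBB3 ranged 10.4-fold, and its ratio to RPS25, a ribosomal protein gene, stayed between 0.526 and 1.91. That ratio was 1.01 and 0.975 in PPDO and 1.00 and 1.18 in ductal-like cells. In RefSeq the gene of the ribosomal protein RPS26 (chromosome 5, 21431656 to 21433691) lies on one side of ERBB3 (21474218 to 21495040) and PA2G4 (21495997 to 21503297) closer on the other, and no feature of the files carries the name RPS26 or PA2G4. Whether UMIs of another gene were counted as ERBB3 was not tested, and the ERBB3 value is uncertain. Without ERBB3, 6 members were higher and 9 lower of 29 tested, with a median log2 fold change of -0.40.

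**Figure D3:**
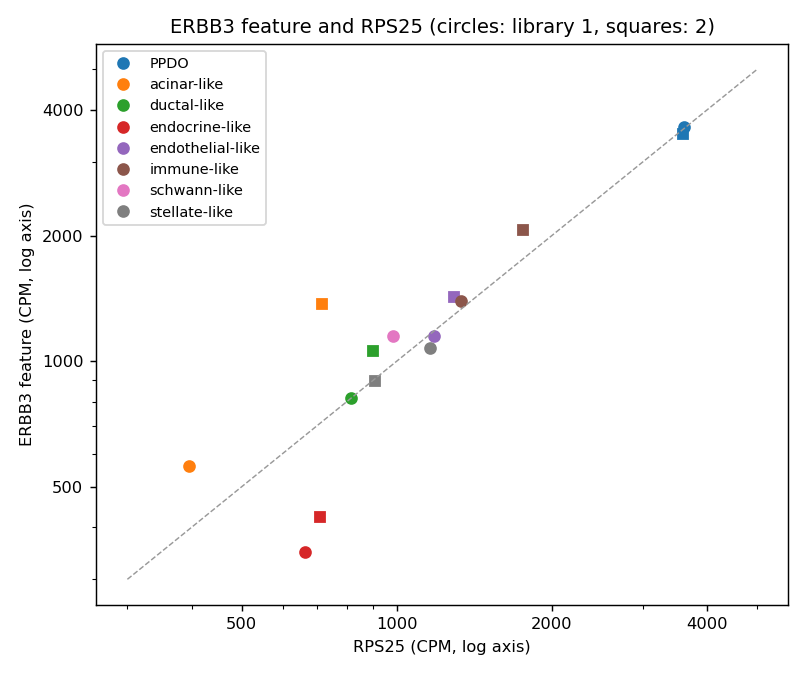
ERBB3 against RPS25, both in CPM on log axes, in PPDO and in each primary class by library (circles for library 1, squares for library 2), with a dashed line of equal values. The points rose together along the line, from endocrine-like cells with 348 and 422 CPM of ERBB3 to PPDO with 3636 and 3499 CPM.

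Of the FGF receptors, FGFR2, the receptor of FGF10 in its epithelial form, was at 135 and 109 CPM in PPDO and at 461 and 389 CPM in ductal-like cells. Both PPDO libraries lay below both primary ones (-1.37 ± 0.22, adjusted p = 0.0088), a call lost without PPDO 2 (-1.27, adjusted p = 0.0599). In every other named class FGFR2 was at or below 23.0 CPM. FGFR4, the receptor of FGF19 in liver, was at 47.7 and 59.4 CPM in ductal-like cells, at or below 5.58 CPM in every other named class, and at 0.103 and 0.061 CPM in PPDO. The log2 fold change was -8.88 ± 0.32 (adjusted p = 0.000365), and 83.9% and 75.0% of the few FGFR4 UMIs in PPDO lay on 3' extension features, beside 4.37% and 3.64% in ductal-like cells.

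FGFR3 was at 12.4 and 12.5 CPM in PPDO and 22.4 and 22.2 CPM in ductal-like cells. Its libraries did not overlap between the groups, but the log2 fold change of -0.40 ± 0.17 did not pass (adjusted p = 0.128). With library totals in place of TMM factors it was called lower (-0.84, adjusted p = 0.0216). FGFR1, the main receptor of mesenchymal cells, was at 3.26 and 3.70 CPM in PPDO and 5.47 and 1.68 CPM in ductal-like cells and did not pass (0.34 ± 0.65, adjusted p = 0.703), although it did without primary pancreas 1 (1.58, adjusted p = 0.020). Its level was 226 and 115 CPM in acinar-like cells, 154 and 104 CPM in stellate-like cells and 50.1 and 35.3 CPM in endothelial-like cells. Of the named primary classes, FGFR2, FGFR3 and FGFR4 were highest in ductal-like cells. The acinar-like level of FGFR1 depended on which cells took the name, since at cluster resolution 1.0, where 108 and 175 cells were acinar-like, it was 79.1 and 285 CPM, and the 424 unnamed cells of library 1 held 247 CPM.

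**Figure D4:**
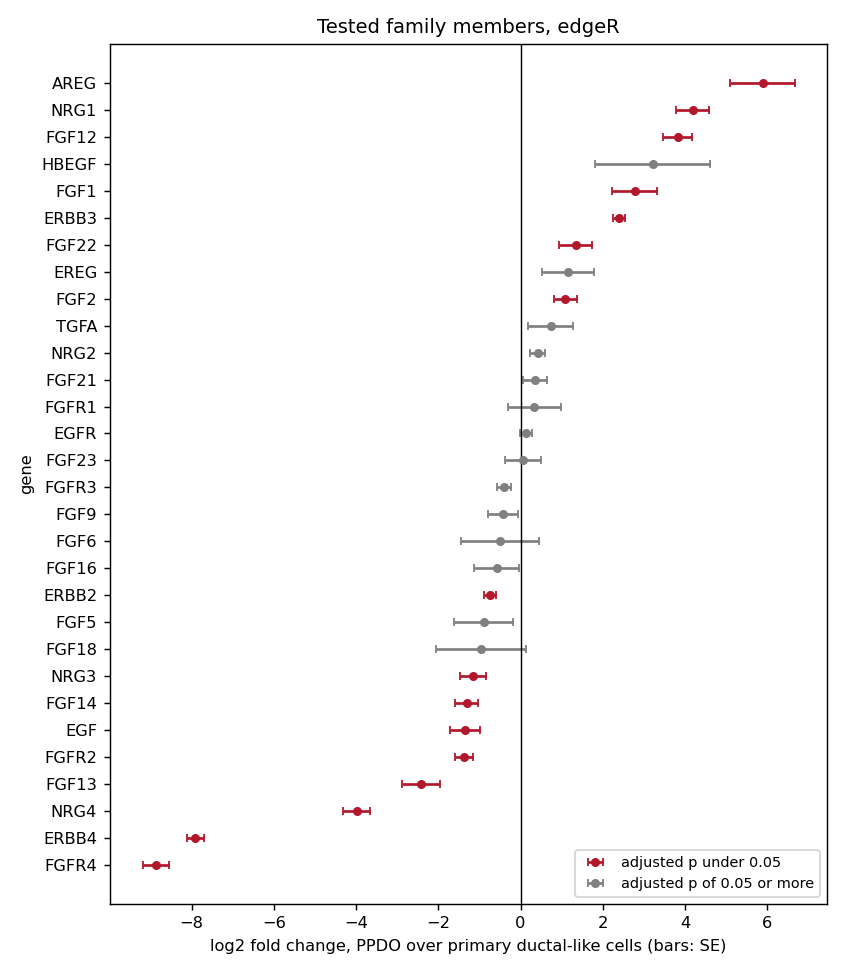
Log2 fold change of each of the 30 tested members, PPDO over primary ductal-like cells, with bars for the SE from edgeR, red where the adjusted p is under 0.05 and grey otherwise. Values ran from -8.88 for FGFR4 to 5.89 for AREG, and the bar of HBEGF, with an SE of 1.40, is the widest.

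Transcripts of the FGF added to the medium, FGF10, were nearly absent from the epithelium, with 8 and 7 UMIs in all PPDO cells and 1 and 0 in ductal-like cells. The levels of FGF10 were 16.4 CPM in schwann-like cells of library 1 and 10.0 and 0 CPM in stellate-like cells. Within library 1, FGF10 was at 21.3 CPM in the 314 stellate-like cells led by DCN and LUM, genes of fibroblasts, and at 0.28 CPM in the 438 led by MYH11 and ACTA2, genes of smooth muscle.

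FGF1 and FGF2, which bind FGF receptors broadly, were also highest outside the epithelium. FGF1 was at 69.4 and 136 CPM in stellate-like cells and 40.1 CPM in schwann-like cells. It was at 0.701 and 0.366 CPM in PPDO and 0.0927 and 0.120 CPM in ductal-like cells, the latter from 4 and 3 UMIs. The difference passed (2.77 ± 0.55, adjusted p = 0.0168) but not without PPDO 1, primary pancreas 1 or primary pancreas 2. With all libraries kept, the log2 fold change went as low as 1.62 and the call was not kept in every setting. FGF2 was at 266 CPM in schwann-like cells, 90.1 and 122 CPM in stellate-like cells and 54.6 and 26.4 CPM in endothelial-like cells. In PPDO it was at 6.44 and 4.77 CPM against 2.85 and 4.44 CPM in ductal-like cells (1.09 ± 0.28, adjusted p = 0.0344), a call lost with library totals in place of TMM factors (0.63, adjusted p = 0.214) and without PPDO 1, PPDO 2 or primary pancreas 1 (adjusted p = 0.207, 0.105 and 0.0777). The summed stellate markers were at 9.13 and 9.10 CPM in PPDO and 22.7 and 5.88 CPM in ductal-like cells, with PPDO between the 2 ductal-like sums.

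FGF22 was the third secreted FGF called higher, at 0.402 and 0.393 CPM against 0.162 and 0.280 CPM, with an adjusted p just under 0.05 (1.35 ± 0.40) that kept its call in 1 of 14 alternatives. FGF9, at 10.6 and 8.62 CPM in endocrine-like cells, was at 0.296 and 0.229 CPM in PPDO and 0.417 and 0.560 CPM in ductal-like cells and did not pass (-0.43 ± 0.36, adjusted p = 0.374). With ductal-like PPDO cells only, chosen after seeing the data, its direction turned and it was called higher (2.52, adjusted p = 0.0115). This call rests on few UMIs, since FGF9 had 89 and 60 in all PPDO cells and 18 and 14 in primary ductal-like cells. FGF21, a hormone of fasting known from liver and pancreas, was at 2.47 and 2.60 CPM in PPDO and 2.81 and 2.56 CPM in ductal-like cells, and did not exceed 11.5 CPM in any class. Of the other secreted and endocrine members none was called in this comparison. In the cells kept, FGF17 had no UMI in any library, and FGF3 had 1 UMI, in primary pancreas 2.

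Of the intracellular FGFs, FGF12 was at 38.7 and 26.6 CPM in PPDO and 3.59 and 2.52 CPM in ductal-like cells (3.82 ± 0.35, adjusted p = 0.00221), a call lost with ductal-like PPDO cells only (2.07, adjusted p = 0.0699). FGF12 was highest in endothelial-like cells, with 301 and 231 CPM. In PPDO the summed endothelial markers were at 0.804% and 0.552% of their endothelial-like level, and FGF12 was at 12.8% and 11.5% of its own. The part of endothelial RNA in the FGF12 of PPDO was not tested. FGF14 had the opposite difference, with 11.8 and 6.74 CPM in PPDO and 28.1 and 34.8 CPM in ductal-like cells (-1.31 ± 0.29, adjusted p = 0.0216), a call lost without PPDO 2 or primary pancreas 2 (adjusted p = 0.0661 and 0.0563). Its highest class was endocrine-like, with 203 and 128 CPM. In ductal-like cells the summed endocrine markers were at 0.0454% and 1.49% of their endocrine-like level, and FGF14 was at 13.8% and 27.1% of its own. The part of endocrine RNA in the FGF14 of ductal-like cells was not tested. FGF13 was low in both, with 0.179 and 0.320 CPM in PPDO and 1.95 and 1.68 CPM in ductal-like cells (-2.42 ± 0.47, adjusted p = 0.0155), which did not pass without PPDO 1 (adjusted p = 0.0828).

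The scaling between the groups moved these counts. With library totals in place of TMM factors, an alternative chosen after seeing the data, the median log2 fold change of all genes fell from 0.01 to -0.44, and the calls over all genes went from 5370 higher and 4904 lower to 3293 higher and 6936 lower (52.3% and 32.2% higher). The members went from 7 higher and 9 lower to 5 higher and 10 lower. FGF2 and FGF22 lost their call, FGFR3 gained one, and the directions of EGFR, NRG2, FGFR1, FGF21 and FGF23, none of them past the threshold, turned to lower.

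Against all primary cells, a comparison that needs no cell naming but moves with the makeup of each primary library, 4 of 32 members tested were higher in PPDO and 6 lower. These 10 made up 31.2% of the members tested, beside 25.7% of 24754 genes. AREG (5.93 ± 0.81, adjusted p = 0.0221), NRG1 (3.75 ± 0.46, adjusted p = 0.0195), ERBB3 and EGFR were higher. EGFR was at 129 and 67.4 CPM over all primary cells, and its log2 fold change of 1.04 ± 0.23 passed (adjusted p = 0.0469), as did that of ERBB3 (2.53 ± 0.19, adjusted p = 0.0132). Both lost their calls with library totals, at 0.69 (adjusted p = 0.281) for EGFR and 2.20 (adjusted p = 0.0522) for ERBB3. That scaling called 1026 genes higher and 3340 lower, beside 2951 and 3399 with TMM factors, and 2 members higher and 5 lower. EGF (-3.94 ± 0.49), NRG4 (-3.13 ± 0.31), ERBB4 (-6.65 ± 0.49), FGFR4 (-7.76 ± 0.45) and FGFR1 (-2.42 ± 0.45) were lower with adjusted p between 0.0103 and 0.034, and FGF13 (-4.07 ± 0.94) was just under the threshold and lost its call with library totals (-4.53, adjusted p = 0.056). Both comparisons use the same PPDO libraries. Without either PPDO library no gene passed this comparison in edgeR, while 5140 and 4844 genes and 9 members in each case had an unadjusted p under 0.05.

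Within the primary organ several members also had different levels between clusters of 1 class, which is a description because the clusters were built from the same cells. In endocrine-like cells the cluster led by SST and GCG held 556 and 700 CPM of FGF14, and those led by INS and CHGA held 67.9 to 127 CPM. In endothelial-like cells FGF12 and FGF2 were high in different clusters. FGF12 was at 425 CPM in the cluster led by DYSF, FLT1 and FGF12 itself in library 1 and at 114 and 105 CPM in that led by TLL1 and SELP, whereas FGF2 was at 4.34 CPM in the first and at 139 and 92.6 CPM in the second. Among immune-like cells HBEGF was at 504 CPM in library 1 in a cluster led by macrophage genes such as C1QA and CD163, and at 11.5 and 3.83 CPM in that of T and natural killer cell genes such as CD3E and GNLY. Of the acinar-like cells of library 1, the 185 led by CPB1 and PNLIPRP2 held 341 CPM of FGFR1 and 253 CPM of NRG1, and the 72 led by CELA2A and PLA2G1B held 13.6 and 3.40 CPM. At resolution 1.0, which left 36 cells of library 1 in a cluster led by CPB1 and put 149 in an unnamed cluster led by MYO18B and GATA4, the acinar-like levels became 61.5 and 166 CPM for NRG1, 106 and 175 CPM for EGF and 23.5 and 40.8 CPM for NRG2.

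PPDO cells fell into 8 clusters, of which 5 took a name from their markers (WNT-like, glycolysis-like, basal-like, proliferating-like and ductal-like). Of the 13 members at 5 CPM or more in PPDO, 4 differed at least 4-fold between the highest and lowest cluster in both libraries, and 3 (EGFR, ERBB3 and FGFR3) differed under 2-fold in both. The 4 were NRG1, NRG2, FGFR2 and HBEGF. NRG1 was at 1367 and 1298 CPM in WNT-like cells, which are led by CXCL14 and LGR6, and at 22.3 and 30.6 CPM in an unnamed cluster led by genes of the cornified epithelium (SPRP, KRTDAP and IVL). FGFR2 was highest and lowest in the same clusters, with 243 and 201 CPM in WNT-like cells and 13.3 and 8.42 CPM in the cornified cluster. For NRG2 these values were 16.6 and 14.7 CPM and 1.20 and 1.43 CPM. The 3 genes thus shared their highest and their lowest cluster in both libraries.

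HBEGF went the other way. It was lowest in proliferating-like cells, at 41.8 and 59.1 CPM, and was at 78.5 and 77.0 CPM in WNT-like cells. It reached 248 and 189 CPM in the cornified cluster and 226 and 331 CPM in glycolysis-like cells, whose leading genes include ADM, EGLN1 and VEGFA. AREG and EREG were at 566 and 471 CPM and at 601 and 912 CPM in ductal-like PPDO cells, a small cluster of 324 and 194 cells, but their highest cluster was not the same in both libraries. In PPDO 2 AREG was highest in proliferating-like cells, at 497 CPM, and in PPDO 1 EREG was highest in the unnamed cluster led by GPNMB, at 610 CPM. TGFA was at 216 and 244 CPM in ductal-like PPDO cells and at 78.6 and 87.7 CPM in glycolysis-like cells. EGFR stayed between 116 and 210 CPM in every cluster. In the ductal-like PPDO cells ERBB4 was at 2.02 and 4.86 CPM, beside 3.04 and 3.17 CPM over all PPDO cells. Both values were low beside the 1027 and 1019 CPM of primary ductal-like cells. FGF9 was at 1.85 and 2.82 CPM in the ductal-like PPDO cells against at most 0.355 CPM in the other clusters.

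**Figure D5:**
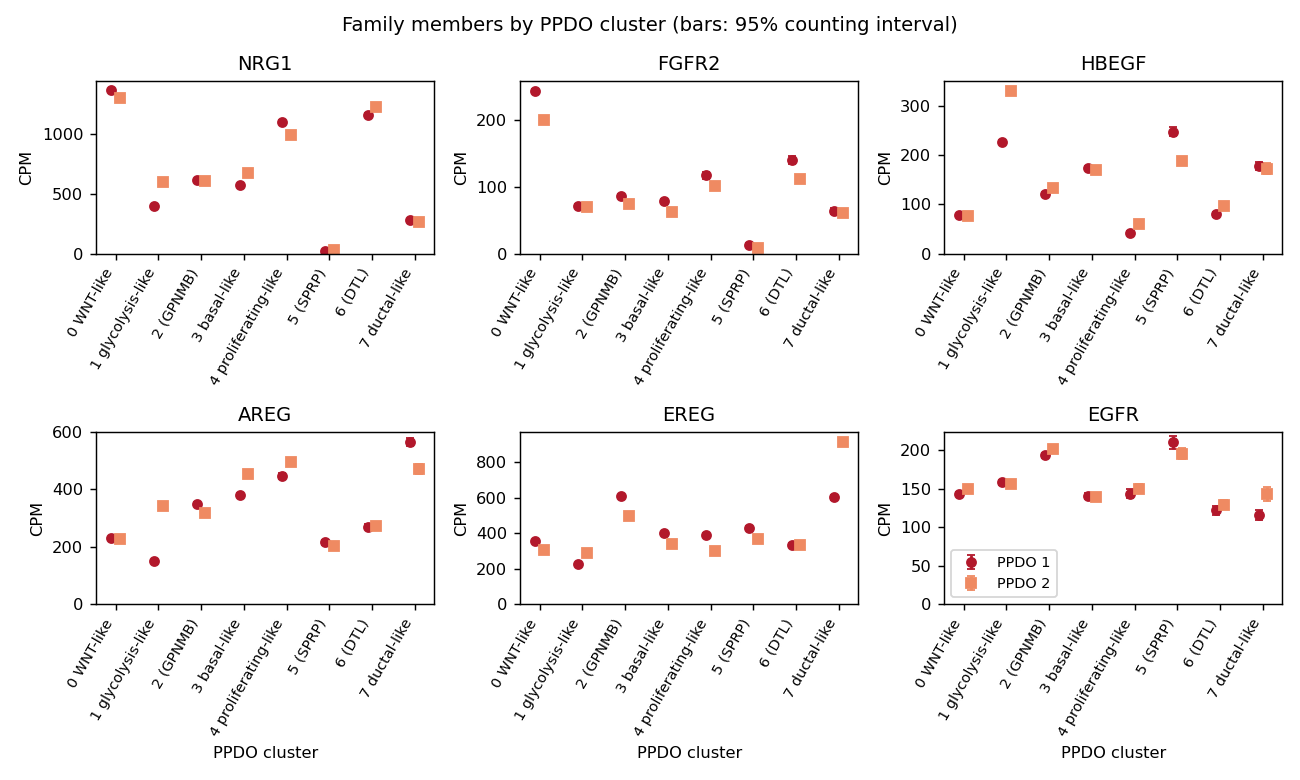
Levels of NRG1, FGFR2, HBEGF, AREG, EREG and EGFR in CPM by PPDO cluster, with red circles for PPDO 1, orange squares for PPDO 2 and bars for the exact 95% Poisson interval of the count, mostly smaller than the symbols; unnamed clusters carry a leading gene. NRG1 and FGFR2 peaked in WNT-like cells and were lowest in the SPRP cluster, HBEGF was lowest in proliferating-like cells, and EGFR stayed between 116 and 210 CPM.

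Shares of cells with at least 1 UMI were compared after thinning each cell to 3000 UMIs, because the median depth was 34176 and 34459 UMIs per cell in PPDO and 17846 and 20546 in ductal-like cells. This left out 61, 10, 113 and 0 shallower cells of PPDO 1 and 2 and ductal-like 1 and 2. With 2 libraries against 2, an exact permutation test cannot go below p = 0.33, so none was used. ERBB4 had a UMI in 85.5% and 87.4% of ductal-like cells and 0.907% and 0.887% of PPDO cells. In endothelial-like cells (median 9212 and 9809 UMIs before thinning) the share was 1.46% and 1.14%, given as a comparison for free RNA in the primary libraries. PPDO held no cell type that should lack these genes, so the free RNA of the PPDO libraries has no such comparison. The shares of endothelial-like cells given here and for the other genes apply to the primary libraries. FGFR2 and NRG1 reached 5 CPM in endothelial-like cells of both libraries, and how much of their shares there is free RNA was not tested. Without thinning the ERBB4 shares were 96.8% and 99.4% and 5.33% and 5.39%.

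FGFR2 had a UMI in 71.5% and 67.9% of thinned ductal-like cells and 28.1% and 24.4% of PPDO cells, beside 1.65% and 2.65% of endothelial-like cells (unthinned 96.8%, 98.9%, 79.3% and 77.0% in the epithelial sets). For FGFR4 the share was 11.6% and 15% in ductal-like cells, 0.194% and 0% in endothelial-like cells, 0 of 8824 cells of PPDO 1, which at 3000 UMIs per cell allows a share of cells with a UMI of up to 0.0340% (3 cells of the total), and 0.0273% in PPDO 2 (unthinned 54.8% and 66.7% in ductal-like cells, 0.351% and 0.191% in PPDO). For AREG the shares were 38.6% and 43.0% in PPDO and 2.69% and 0.854% in ductal-like cells, beside 0.389% and 0.379% in endothelial-like cells (unthinned 75.0%, 82.5%, 11.9% and 5.55%). NRG1 was found in 58.8% and 60.4% of PPDO cells and 15.5% and 9.14% of ductal-like cells, beside 0.875% and 1.89% of endothelial-like cells (unthinned 85.8%, 88.3%, 41.1% and 30.7%). For EREG the shares were 47.9% and 45.8% in PPDO and 41.8% and 24.2% in ductal-like cells, beside 0.292% and 0% in endothelial-like cells (unthinned 83.3%, 85.5%, 77.1% and 74.5%).

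At least 1 of the EGF receptor ligands was found in 78.0% and 79.6% of thinned PPDO cells and in 59.4% and 36.5% of ductal-like cells, while EGFR was found in 34.8% and 35.0% and in 41.7% and 41.9%, beside 0.292% and 0.379% of endothelial-like cells for EGFR (unthinned 92.0%, 92.5%, 88.4% and 92.2%). Cells with both a ligand and EGFR made up 27.2% and 28.4% of PPDO cells and 25.3% and 15.3% of ductal-like cells. Whether these joint shares differ from what the separate shares would give was not tested. Of endothelial-like cells 13.5% and 14.8% had a ligand and 0.292% and 0% had both. These cells held HBEGF, 1 of the ligands, at a mean of 50.4 CPM, so their ligand share is not a measure of free RNA.

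Genes that act around these ligands and receptors were read from a list of 63, of which 60 were matched and tested. Of these 21 were higher in PPDO, 10 lower and 29 did not pass, which is 15 and 15 with library totals, and the median log2 fold change was 0.38. Beside them stand the 22.8% higher and 20.9% lower of all genes, or 3293 and 6936 of 23510 with library totals. Of 16 genes listed as feedback inhibitors, 9 were higher and 1 was lower (7 and 2 with library totals). Some are induced by the pathway and others, such as CBL, are present without it, and whether each damps it here was not tested. Of 11 target genes 4 were higher and none lower under either scaling. The listed inhibitors that were higher were CBL, DUSP6, LRIG2, LRIG3, SPRED1, SPRED2, SPRY1, SPRY2 and SPRY4, and IL17RD was lower. With library totals CBL (0.03, adjusted p = 0.898) and LRIG3 (0.61, adjusted p = 0.0919) lost their calls, and ERRFI1 was called lower (-1.45, adjusted p = 0.0175). Among them was SPRED1, an inhibitor of RAS signaling, with 222 and 213 CPM in PPDO and 52.3 and 48.4 CPM in ductal-like cells (2.55 ± 0.18, adjusted p = 0.00116). The targets that were higher were ETV5 (6.24 ± 0.38, adjusted p = 0.000927) and 3 that reached 20 CPM in PPDO. ETV4, a transcription factor induced by FGF signaling, was at 30.6 and 27.5 CPM against 3.78 and 3.44 CPM (3.44 ± 0.21, adjusted p = 0.000921). MYC was at 44.1 and 46.7 CPM against 3.27 and 0.360 CPM (4.95 ± 1.02, adjusted p = 0.0186), and EPHA4 at 121 and 101 CPM against 22.5 and 4.72 CPM (3.39 ± 0.84, adjusted p = 0.0309). Several targets were far apart between the primary libraries. FOS was at 557 and 522 CPM in PPDO and 2026 and 178 CPM in ductal-like cells, and EGR1 at 219 and 201 CPM and 1002 and 193 CPM, so PPDO lay between the ductal-like libraries for both and neither passed (-0.68, adjusted p = 0.651, and -1.14, adjusted p = 0.313).

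The co-receptors and binding proteins were divided, with 4 of 9 higher (FGFBP1, SDC1, GPC1 and KLB, a co-receptor for endocrine FGFs) and 3 lower (FGFRL1, GPC4 and KL, the other such co-receptor), which is 2 and 3 with library totals, under which GPC1 and KLB lost their calls. FGFBP1, a secreted protein that releases FGFs from the matrix, was at 1445 and 1270 CPM in PPDO and 0.255 and 0.560 CPM in ductal-like cells (12.24 ± 0.38, adjusted p = 0.000315). SDC1, a heparan sulfate proteoglycan, was at 76.3 and 91.5 CPM against 7.21 and 2.92 CPM (4.44 ± 0.57, adjusted p = 0.00506). The adaptors and kinases had 3 higher (HRAS, NRAS and MAP2K2) and 5 lower (BRAF, FRS3, GAB1, GAB2 and SOS2) of 19 (1 and 8 with library totals, under which HRAS and NRAS lost their calls), with GAB2, a docking protein, at 3.04 and 1.40 CPM against 31.4 and 21.2 CPM (-3.16 ± 0.49, adjusted p = 0.00846). Of 5 genes of ligand processing 1 was higher, ADAM17, the protease that cuts AREG and other EGF family ligands from the membrane, and 1 was lower, FURIN, beside which RHBDF1 was called lower with library totals.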

How the data were processed

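The 4 pig libraries of single cells (2 PPDO, 2 primary pancreas) were used, and human organoids and bulk libraries were not analysed here. The authors prepared 10x Genomics 3' libraries from live sorted cells and counted with Cell Ranger 7.1.0 against an in-house pig annotation, with Sscrofa11.1 among the builds in the submitters' processing notes. The deposited matrices hold raw UMI counts for each barcode and feature, and the barcode and feature name tables deposited with them have a unit recorded as other. A correction for free RNA that the study made is not in these counts. Depth was 87043349 to 366263504 UMIs per library. Counting intervals (95%, exact Poisson for sums and exact Clopper-Pearson for shares) and the limit given for a count of 0 (3 counts) cover counting error only.

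Isoform and extension features were summed per gene. Cells were kept by limits taken from the study (mitochondrial UMIs up to 3% in PPDO and 8% in primary pancreas, up to 9000 features, at least 400 in primary pancreas 1 and 800 with 3000 UMIs in primary pancreas 2), taking the replicate number in a title as the number used in the methods. For PPDO the study set its feature floor at 600 for one line and 1000 for the other, and since it is not known which library is which line, 1000 was used for both and 600 as an alternative. Scrublet in Scanpy 1.11.5 removed 89 and 153 primary doublets (scores over 0.25 and 0.15). Cells were clustered without the members and BTC, on 2000 variable genes and 20 components at Leiden resolution 0.5 (leidenalg 0.10.2). They were named from marker lists, with thresholds chosen once clusters were known. Library sums were tested in edgeR 4.0.16 (TMM, filterByExpr, glmQLFit and glmQLFTest on the 2 groups, Benjamini-Hochberg at 0.05). The SE is the absolute log2 fold change divided by the square root of F.

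The members and gene lists were chosen with earlier results of these data known. Members at 5 CPM in both libraries of PPDO or of a named class with 20 cells were described by library, and pathway genes were given with values at an absolute log2 fold change of 2 and 20 CPM, at most 6 in each direction. NRG3, FGF22, BTC, FGF10, FOS, EGR1, the other called pathway genes and the leading genes of clusters were named after their values had been seen. EPGN, SDC4 and PHLDA1 of the pathway list had no feature of that name, and sequences of the members were not used here. In simulated sums of 2 against 2 at a dispersion of 0.05, edgeR recovered 98.0% of 98 changes of 8-fold and 9.18% of 98 of 2-fold, with 1 false call among 23682 genes tested, and DESeq2 1.42.0 recovered 94.9% and 17.3% with 6. The biological coefficient of variation was 0.302 against ductal-like cells and 0.462 against all primary cells, a larger dispersion than the simulated one, so the simulated recovery is higher than these comparisons allow. Alternatives were DESeq2, RLE factors, no low-count filter, a replicate block, each replicate left out, sums without extensions, thinned sums, doublets kept, other cluster resolutions and a feature floor of 600 in PPDO. Removal of a ductal-like cluster, ductal-like PPDO cells only, library totals and unthinned cells were chosen after seeing the data.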

Additional observations from a re-analysis of the deposited data

How the results depend on the processing

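Of the 16 members called against ductal-like cells, 6 (AREG, ERBB3, ERBB4, FGFR4, NRG1 and NRG4) kept their call and direction under every alternative run for this comparison. Leaving out 1 library in turn gave 9 to 16 called members, 4787 to 10731 genes (10274 with all) and 19 to 42 pathway genes (31 with all), the lowest always without a PPDO library, and a lone library was assumed to vary like the 2 of the other group. With the spread of the 2 PPDO libraries alone, HBEGF, EREG and TGFA passed without primary pancreas 1, at 7.0, 2.37 and 1.75, and HBEGF and EREG also without primary pancreas 2, at 2.26 and 0.48, while FGFR1 passed without primary pancreas 1, at 1.58 (adjusted p = 0.020). The call of FGFR2 was lost without PPDO 2 (-1.27, adjusted p = 0.0599). With ductal-like PPDO cells only, from 324 and 194 cells, 8 members were called. The PPDO sums then held 11890303 and 6373448 UMIs, beside 300990260 and 262372786 with all PPDO cells. The count of 8 was not set beside the calls over all genes in this setting, so its fall from 16 cannot be assigned to the members. In this setting the calls of FGF12 (2.07, adjusted p = 0.0699), EGF, NRG3, ERBB2, FGF2, FGF13 and FGF14 were lost. FGF1 and FGF22 had too few UMIs to test, and FGF9, itself with few UMIs, reversed to 2.52 (adjusted p = 0.0115). The other values that turned passed neither with all libraries nor under the setting that turned them. These were FGF21 at -0.46 and -0.085, FGFR1 at -0.23 and -0.051 and EGFR at -0.33 and -0.32 with ductal-like PPDO cells only and with library totals, NRG2 at -0.042 with library totals and -0.18 without extensions, FGFR1 at -0.14 with doublets kept, and FGFR1 at -0.34 and EGFR at -0.013 without primary pancreas 2. FGF23 was at -0.35 with library totals and -0.72 in thinned sums, and FGF18 at 1.68 without the OSGIN1, RND1 and EREG cluster. EGFR ran from -0.013 to 0.22, FGFR1 from -0.34 to 1.58, FGF16 from -1.17 to 0.077, FGF18 from -1.83 to 1.92 and FGF23 from -0.31 to 0.57 as each library was left out. The causes were not tested. Against all primary cells, DESeq2 called 10167 genes and 19 members beside 6350 and 10 in edgeR, leaving out 1 library gave 0 to 13011 genes and 0 to 22 members, and library totals gave 1026 genes higher and 3340 lower beside 2951 and 3399. The same replicate numbers do not pair these animals and lines (correlation of deviations -0.01 over 23510 genes). A replicate block, the paired alternative, gave 8303 genes, 12 members and 29 pathway genes against ductal-like cells and 2675 genes and 7 members against all primary cells. By primary class 22 to 24 members were described under other settings beside 23, and by PPDO cluster 15 under each. Without thinning, 18 members were found in at least 5% of PPDO cells of both libraries beside 10 with it. No value came from clusters with at least 10% of cells in both libraries, since no ductal-like cluster had them. UMI depth limits the members below 1 CPM, and arms of 2 libraries limit every test.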
